A study of Homo sapiens with 4 samples.

Results

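The 9 genes described here code for S100 calcium-binding proteins, namely S100A2, S100A3, S100A4, S100A6, S100A10, S100A11, S100A13, S100A14 and S100A16. They were found by gene symbol among 36601 listed genes, in which 21 S100 family genes were present. The group was selected on 1 measured value, the level of S100A6 at 10 mGy against control. That contrast is therefore given as a description, from which nothing is read about the group.

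S100 proteins are small proteins that carry calcium in a pair of EF-hand loops and mostly work as dimers. Calcium binding exposes a surface that grips target proteins, among them annexins, cytoskeletal proteins and p53. They act in membrane repair, exocytosis, cell motility and growth, and some are released as signals in inflammation. Most of the genes lie together on the long arm of chromosome 1, in a cluster rich in genes of epithelial differentiation.

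BEAS-2B cells derive from human bronchial epithelium and were immortalized for culture. The cells received 10 mGy, 100 mGy or 1 Gy of gamma rays from Cs-137 at 100 mGy per min, or no irradiation (control), and were kept in culture for 30 min. Each group was 1 single-cell library made with 3' chemistry, in which a barcode marks a cell and a unique molecular identifier (UMI) marks a captured mRNA molecule. Since no group was replicated, dose and library cannot be told apart, no test between doses was made, and the exact 95% intervals cover counting error only.

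Between 11111 and 21514 barcodes and between 211752280 and 285806026 UMIs were deposited per library. Values for the 4 libraries are given in order of rising dose, from the control to 1 Gy, unless their doses are named. Barcodes whose UMI count times 3 was under the library median, called low-UMI barcodes, made up 19.6%, 41.4%, 27.4% and 25.4% of the libraries. Pairs of libraries shared 76 to 134 barcode sequences, at most 0.864% of a library. The epithelial keratin genes KRT8, KRT18 and KRT7 were expressed in every library (219 to 645 CPM, the UMIs of a gene scaled to 1000000 UMIs of the library), whereas the keratin gene KRT19 stayed at or below 2.41 CPM and the adhesion genes EPCAM and CDH1, which define intact epithelium, at or below 1.17 CPM. The tight junction gene CLDN1 had 19.6 CPM, 13.6 CPM, 11.1 CPM and 19.9 CPM. Of 6 mesenchymal markers, VIM stood at 2344 CPM or more, COL1A1 at 20.5 to 25.6 CPM, and COL1A2, DCN and LUM at or below 0.113 CPM. The remaining one, the fibronectin gene FN1, had 1546 CPM, 623 CPM, 640 CPM and 1466 CPM, lowest at the doses where most S100 genes were highest, and its part in the S100 values was not tested. Immune markers summed to at most 1.58 CPM and endothelial markers to at most 0.679 CPM.

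The promoter sequences are shown for the 4 S100 genes with the highest mean level over the libraries. At the low doses, 3 of them stood well above control and the other, S100A16, moved least among the expressed members. S100A13 was higher than S100A16 at 10 mGy and 100 mGy but not in the mean. RefSeq (GRCh38.p14) held 13 start windows for the 9 genes, and the 250 bases before a start were searched on both strands for TATAA (TATA box), GGGCGG (GC box) and TGANTCA (AP-1 site). Each sequence is read 5' to 3' along the gene, on the minus strand, with matches in capitals. The S100A6 window was chr1:153535992-153536241, the S100A10 window chr1:151993860-151994109, the S100A11 window chr1:152037005-152037254 and the S100A16 window chr1:153609356-153609605.
S100A6: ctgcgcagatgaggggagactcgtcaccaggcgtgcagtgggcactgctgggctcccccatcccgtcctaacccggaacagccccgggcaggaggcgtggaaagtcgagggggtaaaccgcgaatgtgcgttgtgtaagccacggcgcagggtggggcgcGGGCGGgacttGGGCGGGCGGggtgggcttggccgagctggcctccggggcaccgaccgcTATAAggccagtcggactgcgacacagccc
S100A10: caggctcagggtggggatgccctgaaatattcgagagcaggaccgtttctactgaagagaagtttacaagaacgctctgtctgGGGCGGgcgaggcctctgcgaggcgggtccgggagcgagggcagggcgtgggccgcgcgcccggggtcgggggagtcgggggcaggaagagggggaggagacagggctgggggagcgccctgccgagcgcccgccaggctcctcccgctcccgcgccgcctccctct
S100A11: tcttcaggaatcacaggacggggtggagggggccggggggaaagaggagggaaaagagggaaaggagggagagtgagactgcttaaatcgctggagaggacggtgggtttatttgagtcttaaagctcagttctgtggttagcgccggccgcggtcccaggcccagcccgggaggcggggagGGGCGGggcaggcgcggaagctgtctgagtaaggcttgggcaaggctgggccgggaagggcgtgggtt
S100A16: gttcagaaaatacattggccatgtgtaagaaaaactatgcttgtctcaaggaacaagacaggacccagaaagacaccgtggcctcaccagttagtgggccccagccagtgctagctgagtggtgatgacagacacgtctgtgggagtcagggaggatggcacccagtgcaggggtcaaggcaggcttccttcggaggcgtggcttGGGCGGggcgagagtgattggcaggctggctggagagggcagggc
S100A6 held 1 TATAA match close to the start and 3 GGGCGG matches, of which a pair overlap. S100A10, S100A11 and S100A16 each held 1 GGGCGG match and no TATAA match, and the other S100A16 start held none of the 3 motifs. TATAA matches also occurred before S100A4, S100A13 and S100A14, so that 4 of 13 windows held one, against 18.9% of 35116 windows of all genes. GGGCGG was found in 6 of 13 windows (42.6% of all windows) and TGANTCA in 2 of 13, at S100A2 and S100A3 (6.57% of all windows). These matches are descriptions of letters, not of binding.

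The levels of the 9 genes spanned several orders of magnitude. Levels are CPM over all deposited barcodes. In 3' libraries a molecule is counted once whatever its length, so levels were not divided by length. S100A6, also called calcyclin, was the most abundant with 1849 CPM without irradiation and then 4014 CPM, 3487 CPM and 1689 CPM by rising dose. The next was S100A10 (p11), the partner of annexin A2 that is locked in its active shape without calcium. It reached 1013 CPM, 1485 CPM, 1739 CPM and 916 CPM. S100A11, which binds annexin A1, followed with 775 CPM, 1281 CPM, 1213 CPM and 660 CPM. In all 3 genes the 10 mGy and 100 mGy libraries stood above the control, and the 1 Gy library stood below it. Other measures moved with the low doses as well: mitochondrially encoded genes took 5.91%, 4.55%, 4.40% and 5.78% of the UMIs, and 16 G2/M markers summed to 4200 CPM, 3304 CPM, 3700 CPM and 4363 CPM. Their part in the S100 values was not tested.

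Another 3 genes were in the middle range. S100A16, a broadly expressed member, had 253 CPM, 297 CPM, 267 CPM and 249 CPM. S100A13, which takes part in the export of FGF1 and interleukin 1 alpha without a signal peptide, had 175 CPM, 327 CPM, 307 CPM and 174 CPM. S100A2, an epithelial member that binds p53, had 52.7 CPM, 72.8 CPM, 74.0 CPM and 47.3 CPM. S100A16 and S100A13 exchanged places in the order of levels: S100A16 was higher in the control and at 1 Gy, and S100A13 was higher at 10 mGy and 100 mGy, with counting intervals that did not overlap.

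The other members were scarce. S100A4 (metastasin), which binds non-muscle myosin, had 6.38 CPM, 10.3 CPM, 10.8 CPM and 6.13 CPM. S100A3, a cysteine-rich protein best known from hair cuticle, had 4.55 CPM, 8.27 CPM, 7.09 CPM and 4.09 CPM. S100A14, an epithelial member, was near the limit of detection, with 39 UMIs in the whole control library and 54 UMIs, 34 UMIs and 51 UMIs in the irradiated libraries. Its intervals overlapped in all 4 libraries, and at most 0.351% of the barcodes of a library held a UMI of it. Together the 9 genes took 0.413%, 0.750%, 0.711% and 0.375% of the UMIs. S100A6, S100A10 and S100A11 made up 87.2% to 90.6% of these.

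**Figure D1:**
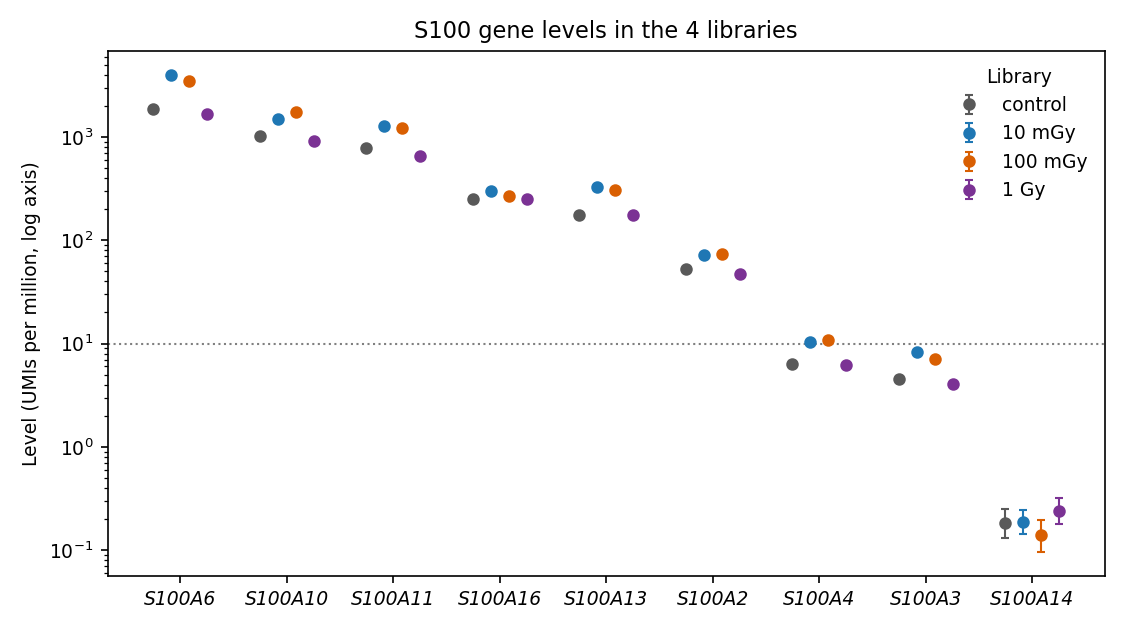
Level of each S100 gene (CPM, log axis) in the 4 libraries, with exact 95% counting intervals. The dotted line marks 10 CPM. S100A6 lies between 1689 and 4014 CPM and S100A14 at or below 0.241 CPM.

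None of the other 12 family genes reached 10 CPM. S100A5, which lies beside S100A6 in the cluster, was the highest of them with 0.343 CPM, 0.451 CPM, 0.409 CPM and 0.274 CPM. The calprotectin genes S100A8 and S100A9, which neutrophils express strongly, had at most 7 and 13 UMIs in a library. S100A12, S100A7A and S100A7L2 had 0 UMIs in every library, where a floor of 3 counts is 0.0142 CPM in the shallowest.

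The S100 levels of the low-dose libraries were set against those of the control library as ratios. For a background, the same ratios were taken for the 8507 genes with a mean of at least 10 CPM over the libraries, called expressed here, among them 6 of the 9 members (S100A2, S100A6, S100A10, S100A11, S100A13 and S100A16). At 10 mGy, S100A6 stood 2.17-fold above the control (95% counting interval 2.16 to 2.18), the value the group was chosen by. It ranked 4 among 1779 genes of at least 100 CPM. S100A13 was 1.87-fold higher (rank 38), S100A11 1.65-fold (rank 114), S100A10 1.47-fold (rank 271) and S100A2 1.38-fold. S100A3 was 1.82-fold higher (1.69 to 1.96) and S100A4 1.62-fold (1.52 to 1.73). S100A16, at 1.17-fold (1.16 to 1.19), stayed under the threshold of 1.2-fold, and S100A14 at 1.03-fold had an interval from 0.670 to 1.6.

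Thus 7 of the 9 genes stood over 1.2-fold above the control at 10 mGy, where 15.4% of all genes did. None of the 9 stood over 1.2-fold below it, where 53% of all genes did. S100A3, S100A4 and S100A14 lie under the 10 CPM floor of that background, which also gives the later shares of all genes. Under scaling by the median ratio of all genes, 9 of the 9 stood over 1.2-fold higher at 10 mGy and 8 at 100 mGy, and the background shares rose to 30.6% and 31.8%, since the median gene, at a log2 ratio of -0.30 at 10 mGy and -0.38 at 100 mGy in CPM, then stands near the control. As the contrast chose the group, the 10 mGy counts are no result about it.

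At 100 mGy, 7 of the 9 genes again stood over 1.2-fold above the control, against 14% of all genes. This ratio uses the same control library as the 10 mGy ratio, so the pair are not independent. S100A6 was 1.89-fold higher (1.88 to 1.89), S100A13 1.75-fold (1.73 to 1.77), S100A10 1.72-fold (1.71 to 1.73), S100A11 1.57-fold (1.56 to 1.58) and S100A2 1.40-fold (1.37 to 1.44). Among the scarce genes, S100A4 was 1.70-fold higher and S100A3 1.56-fold. S100A16 differed little from the control at 1.05-fold (1.04 to 1.07). The 1 gene past 1.2-fold below the control, where 58.9% of all genes stood, was S100A14 at 0.759-fold, with an interval from 0.465 to 1.23 that holds 1.

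At 1 Gy, 6 of the 9 genes had intervals wholly below 1, as did 30.2% of all genes. Intervals narrow as UMIs increase, and that share was not matched to the levels of the members. The lowest ratio was that of S100A11 at 0.852 (0.846 to 0.858), followed by S100A2 at 0.896, S100A3 at 0.899, S100A10 at 0.904 and S100A6 at 0.913. S100A16 at 0.984 (0.972 to 0.996), S100A13 at 0.992 (0.977 to 1.01) and S100A4 at 0.961 (0.890 to 1.04) lay closer to the control. None of the 9 stood over 1.2-fold below the control, against 0.846% of all genes, and 1 stood over 1.2-fold above it, against 1.28%. With a floor of 1 CPM in place of 10 CPM, the share of all genes past 1.2-fold either way rose from 2.13% to 4.56%. The gene above it was S100A14 at 1.31-fold, which lies under either floor, with an interval from 0.849 to 2.05. The S100A11 ratio was lower than those of all but 1.59% of the 8507 genes. As the mean of UMIs scaled per barcode, S100A11 was at 0.935, S100A6 at 0.975, S100A10 at 0.964 and S100A3 at 0.977. On that measure S100A13 was at 1.03, S100A16 at 0.99, S100A2 at 0.887 and S100A4 at 0.957.

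The ratio of 100 mGy over 1 Gy uses neither library of the contrast that chose the group. Here 7 of the 9 genes stood over 1.2-fold higher at 100 mGy, where 14% of all genes did, and 1, S100A14, stood over 1.2-fold lower, where 60.6% did. S100A6 was 2.07-fold higher at 100 mGy (2.06 to 2.07), S100A10 1.90-fold (1.89 to 1.91), S100A11 1.84-fold (1.83 to 1.85), S100A13 1.76-fold (1.74 to 1.79) and S100A2 1.57-fold (1.53 to 1.6). S100A16 was 1.07-fold higher (1.06 to 1.08), and S100A14 was at 0.577-fold (0.363 to 0.909). The median log2 ratio of the 6 expressed members was 0.85, and that of all expressed genes was -0.42. The 1 Gy library stood near the control, however, with 2.13% of all genes past 1.2-fold. The 100 mGy library differed less from 10 mGy than from the control, with 1.35% of all genes over 1.2-fold higher and 12.7% lower. The shares of all genes nearly repeat those of 100 mGy over control (14% and 58.9%). These counts are therefore not independent of the contrast that chose the group. With 1 library on each side, the difference has no replicate check.

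**Figure D2:**
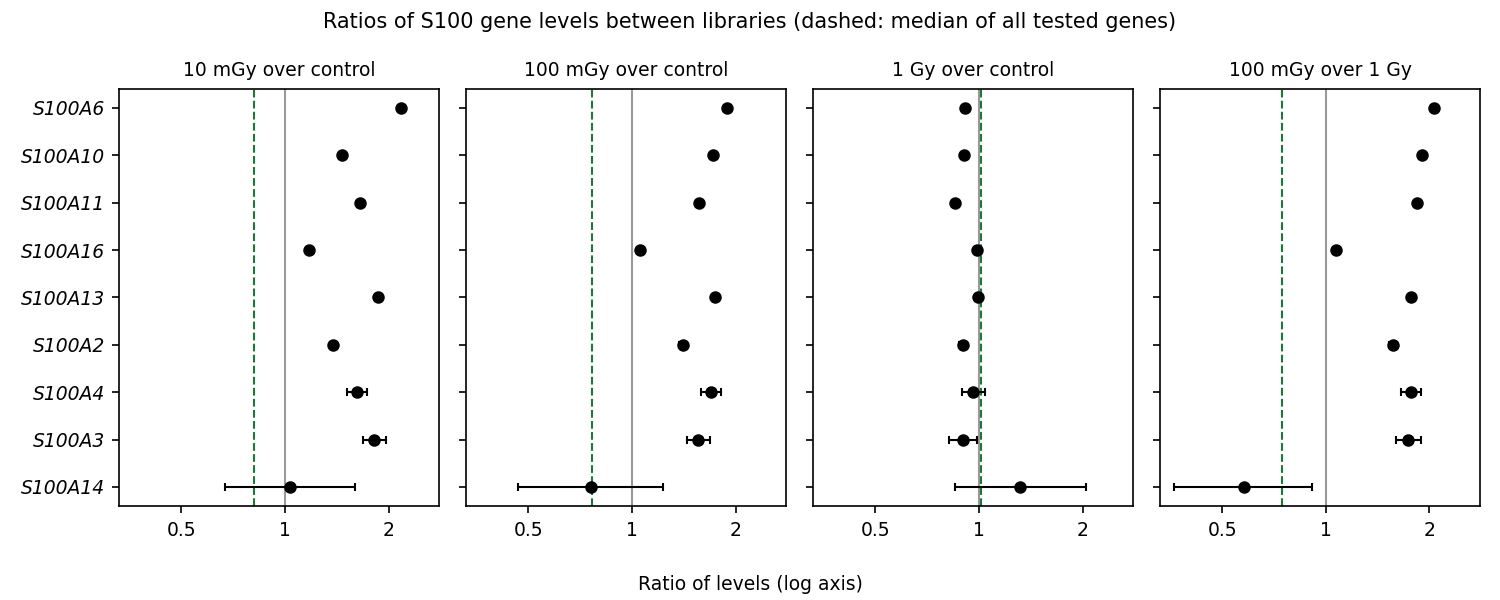
Ratio of levels between libraries for the 9 S100 genes (log axis), with exact 95% counting intervals, in the 4 comparisons named above the panels. The solid line is a ratio of 1 and the dashed line the median of the 8507 expressed genes. S100A6 lies at 2.17, 1.89, 0.913 and 2.07, and S100A14 has the widest intervals.

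Between the low doses the S100 genes went different ways in CPM. S100A10 was 1.17-fold higher at 100 mGy than at 10 mGy (1.17 to 1.18), a ratio above those of 97.7% of the expressed genes. As unscaled UMIs per barcode its ratio was 1.08, and it turned to 0.905 when the low-UMI barcodes were also left out. S100A6 was lower at 100 mGy, at 0.869-fold (0.866 to 0.871), as were S100A3 at 0.857, S100A16 at 0.899, S100A13 at 0.937 and S100A11 at 0.947. The last pair lay near the middle of all expressed genes, above 44.0% and 48.7% of them, and S100A6 lay above 20.9%. Under median ratio scaling the differences of S100A11 (1.00) and S100A13 (0.993) between the low doses were gone, and S100A10 passed the threshold at 1.24-fold. S100A2 at 1.02-fold (0.997 to 1.04) and S100A4 at 1.05-fold (0.995 to 1.11) had intervals that hold 1. In CPM none of the 9 passed 1.2-fold upward, against 1.35% of all genes. S100A14 passed it downward at 0.736-fold (0.465 to 1.15), against 12.7% of all genes. As unscaled UMIs per barcode, all but S100A10 were lower at 100 mGy, with S100A2 at 0.938 and S100A4 at 0.967. Without the low-UMI barcodes as well, all 9 were lower, from 0.558 (S100A14) to 0.905 (S100A10).

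Exonic length, the bases covered by the exons of all annotated transcripts of a gene, moved with the ratios at the low doses. It is not the length of a single transcript. The 9 genes are short, with 680 bases (S100A11) to 2216 bases (S100A13) of exon in GENCODE 29, and the expressed genes had a median of 5323.5 bases. Among the 902 expressed genes of at most 2216 bases, 511 stood over 1.2-fold above the control at 10 mGy, or 56.7%, and 491 did at 100 mGy, or 54.4%. Among the longer genes the shares were 10.5% and 9.17%. The median log2 ratios of the short genes to the control were 0.33, 0.32 and -0.02 by rising dose. Those of the 6 expressed members were 0.64, 0.71 and -0.14. Nearer to the members in length were 229 expressed genes of at most 1277 bases, the median of the 9. Of these, 64.2% stood over 1.2-fold above the control at each low dose, with median log2 ratios of 0.41 and 0.46. For 100 mGy over 1 Gy the 902 genes of at most 2216 bases had a median of 0.34 and 55.1% over 1.2-fold higher. The part of length in the S100 values was not tested.

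**Figure D3:**
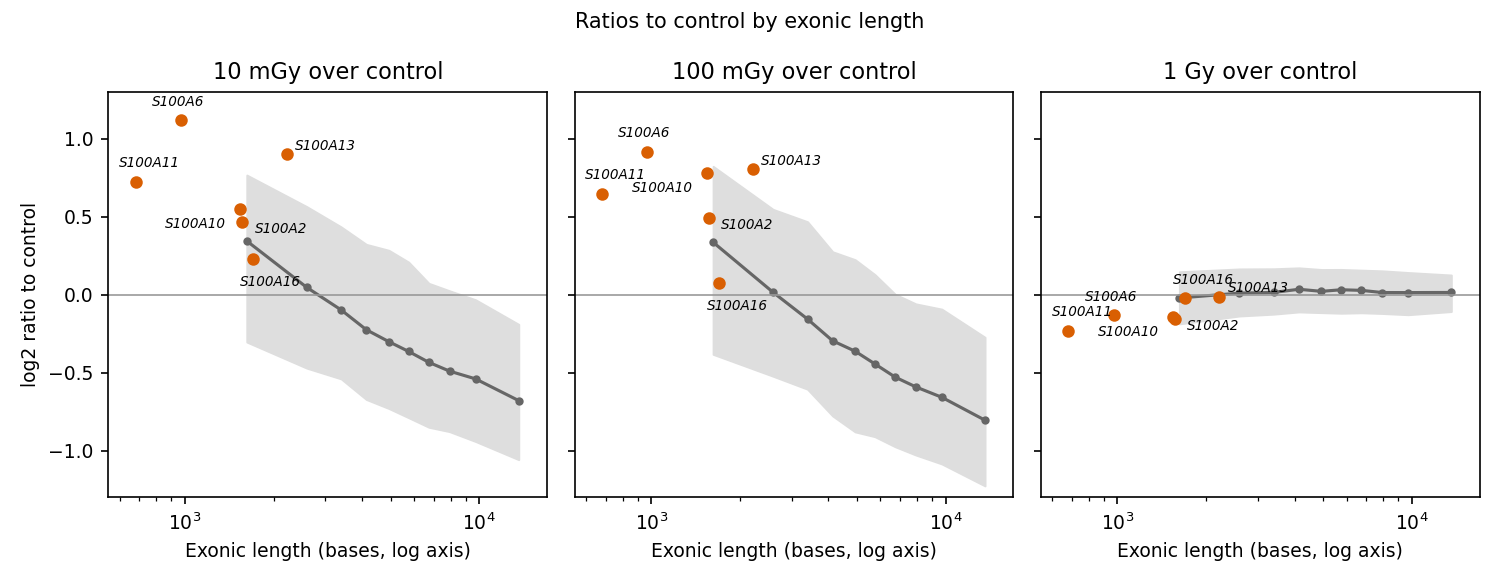
Log2 ratio to control against exonic length (bases, log axis) for the 6 expressed S100 genes (orange), with the median (grey line) and the 10th to 90th percentile (grey band) of the expressed genes in 10 groups by length. At 10 mGy the medians of the groups run from 0.34 for the shortest to -0.68 for the longest genes, and S100A6 lies at 1.12.

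UMI counts per barcode give another scale, since the irradiated libraries held fewer UMIs per barcode (a median of 13757, 12417 and 14277 against 19771 in the control, and of 19927, 15108 and 16426 against 21752 without the low-UMI barcodes) and the S100 values were shares of them. Ribosomal protein genes took 13.9%, 19.97%, 21.8% and 14% of the UMIs. Without scaling, the mean S100A6 UMIs per barcode were 1.51-fold, 1.21-fold and 0.651-fold those of the control by rising dose. On that scale S100A2 turned below the control at 10 mGy (0.957-fold) and at 100 mGy (0.898-fold), and S100A3 at 100 mGy (0.998-fold). S100A16 was at 0.814-fold and 0.675-fold. Of the 9 genes, 3 then stood over 1.2-fold above the control at 10 mGy, against 1.62% of all genes, and 1 at 100 mGy, S100A6, against 1.02%. On that scale the expressed genes had median log2 ratios of -0.83 and -1.03. The low-UMI barcodes bear on these values. Unscaled and without them, S100A6 stood at 1.98-fold and 1.33-fold at the low doses, S100A2 at 1.26-fold and 0.986-fold, S100A3 at 1.68-fold and 1.1-fold, and S100A16 at 1.08-fold and 0.746-fold. Then 7 of the 9 genes stood over 1.2-fold higher at 10 mGy, against 10.5% of all genes, and 4 at 100 mGy, against 2.37%. Scaled and without them, the S100A6 ratio was 2.15 at 10 mGy and 1.89 at 100 mGy.

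Over single barcodes, the S100A6 share of UMIs was higher at the low doses than in the control at the median and both quartiles. The 10 mGy values are those that the group was chosen by, so this is a description. The median barcode held 17.9, 41.0, 34.2 and 16.8 S100A6 UMIs per 10000 UMIs. The lower quartile at 10 mGy (32.9) lay above the upper quartile of the control (22.7), and the same held at 100 mGy (26.7). As unscaled UMIs of the same barcodes, the S100A6 medians were 35, 48, 40 and 22. Without the low-UMI barcodes they were 39, 77, 51 and 27. S100A10 medians were 9.82, 14.8, 16.8 and 9.0 UMIs per 10000, and those of S100A11 were 7.65, 13.2, 12.2 and 6.62. At least 98.1% of the barcodes of each library held a UMI of S100A6. No cell type without S100A6 was present in these libraries to set free RNA against.

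**Figure D4:**
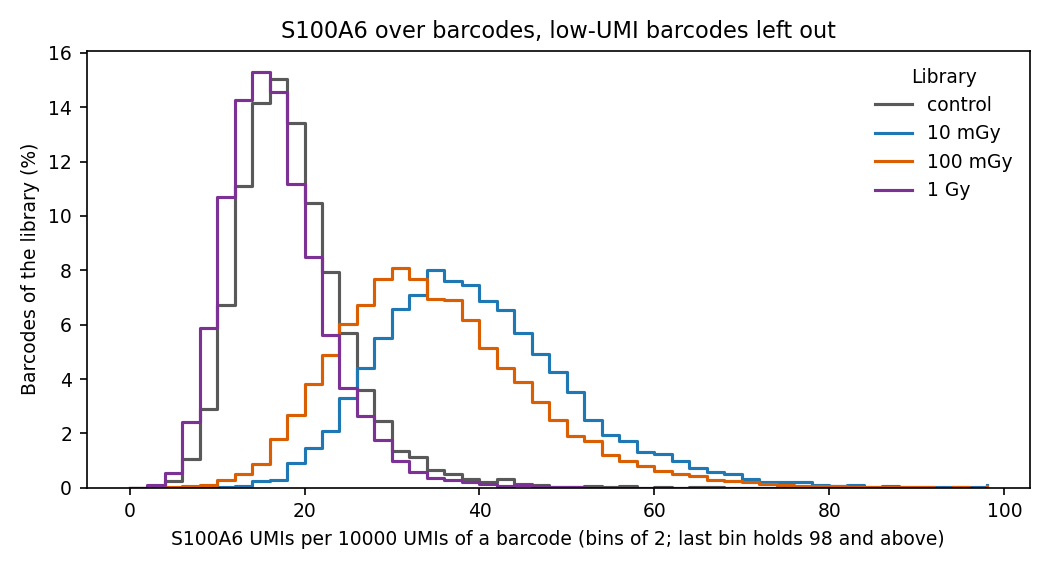
Share of barcodes (%) by S100A6 UMIs per 10000 UMIs of the barcode, in bins of 2, with low-UMI barcodes left out. The control and 1 Gy libraries form 1 narrow peak each, and the 10 mGy and 100 mGy libraries form peaks at higher values that are broader in these units. Relative to the mean, the standard deviation was 34.9%, 28.7%, 32.8% and 35.4% by rising dose from the control.

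Dispersion, the standard deviation over the mean across barcodes, is the measure by which the study set its low doses against each other. For S100A6 it was 44.0%, 34.5%, 42.2% and 52.0%. For S100A10 it was 51.6%, 48.1%, 51.6% and 61.9%, and for S100A11 it was 58.1%, 53.3%, 63.9% and 78.3%. Dispersion was lower at 100 mGy than at 10 mGy for 1 of the 9 genes, S100A14, against 1.41% of all genes. This count moved with the scale, the barcodes and the depth. With unscaled UMIs of the same barcodes it was 6, against 43.9% of all genes, and the order of the low doses turned: S100A6 had 93.2% at 10 mGy and 84.7% at 100 mGy, S100A10 92.4% and 84.7%, and S100A11 88.2% and 81.8%, each above the control (67.3%, 68.3% and 66.2%). Thinning to 5000 UMIs left out the barcodes with fewer, so that 9060, 12561, 14271 and 11530 barcodes remained. Among these, 2 members were lower at 100 mGy (S100A4 and S100A10), against 31.1% of all genes, and S100A6 had 45.1%, 34.7%, 37.7% and 45.5%. Thinning to 1500 UMIs gave 3 members, against 39.2% of all genes, and keeping barcodes with at least 700 genes gave 8, against 99.7%.

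Within each library, S100 genes were compared between barcodes of high G2/M content and the others. This contrast was not used to choose the group. Barcodes were ranked by the share of UMIs from 16 G2/M marker genes such as TOP2A and CCNB1, low-UMI barcodes were left out, and the upper 25% were set against the rest. Between 8.15% and 9.59% of barcodes lay within 10% of the cut, so the classes are ranges of a score. S100A6 was lower in G2/M-high barcodes in all 4 libraries. It had 1689 CPM against 1904 CPM, 3587 CPM against 4119 CPM, 3101 CPM against 3618 CPM, and 1555 CPM against 1713 CPM. The ratios were 0.887, 0.871, 0.857 and 0.908.

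Altogether 7 of the 9 genes were lower in G2/M-high barcodes in all 4 libraries, against 29.9% of all genes, and none was higher in all 4, against 41.3%. These shares are of the 8507 expressed genes, which leave out S100A3, S100A4 and S100A14. For S100A2, S100A6, S100A11, S100A13 and S100A16 the counting interval lay below 1 in each library, as it did for 17% of all genes, a share not matched to their levels. S100A2 had ratios from 0.853 to 0.908 and S100A16 from 0.886 to 0.918. S100A11 (0.948 to 0.961) and S100A13 (0.926 to 0.949) differed less. S100A10 was the exception among the abundant genes, with ratios of 1.00, 0.953, 0.952 and 0.989. It was lower in all 4 libraries when thinned to 5000 UMIs (0.955 to 0.983) and with totals that left out ribosomal protein and mitochondrially encoded genes, where the control ratio was again 1.00. Thinned to 5000 UMIs, S100A3 and S100A14 were no longer lower in all 4. S100A3 was at 1.2 in the 10 mGy library when thinned, at 1.03 with the upper 10% of barcodes and at 1.02 with all deposited barcodes. S100A3 and S100A14 completed the 7, both on few UMIs, with intervals that held 1 in 3 and 4 libraries.

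The mean log2 ratio of S100A6 over the 4 libraries was -0.18 ± 0.04 (SD, n = 4), that of S100A2 -0.18 ± 0.04 and that of S100A16 -0.15 ± 0.03. The 4 libraries differ in dose, so the SD holds any difference between doses and is no spread of replicates. An exact two-sided sign-flip permutation test gave p = 0.13 for each of the 7 genes. This is the smallest p that the test allows with 4 libraries, so the test cannot reach 0.05. Any gene on the same side of 1 in all 4 libraries gets this p. The 7 genes were picked by that property, so their p was fixed by the choice and adds nothing to it. Of all genes, 29.9% were lower and 41.3% higher in all 4 libraries. S100A4 and S100A10, with ratios on both sides of 1, did not reach the smallest p. G2/M-high barcodes also held more UMIs (a median of 25301 against 21067 in the control), and the ratios are shares of UMIs. Thinned to 5000 UMIs, with barcodes of fewer UMIs left out, the S100A6 ratios were 0.875, 0.872, 0.858 and 0.912.

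**Figure D5:**
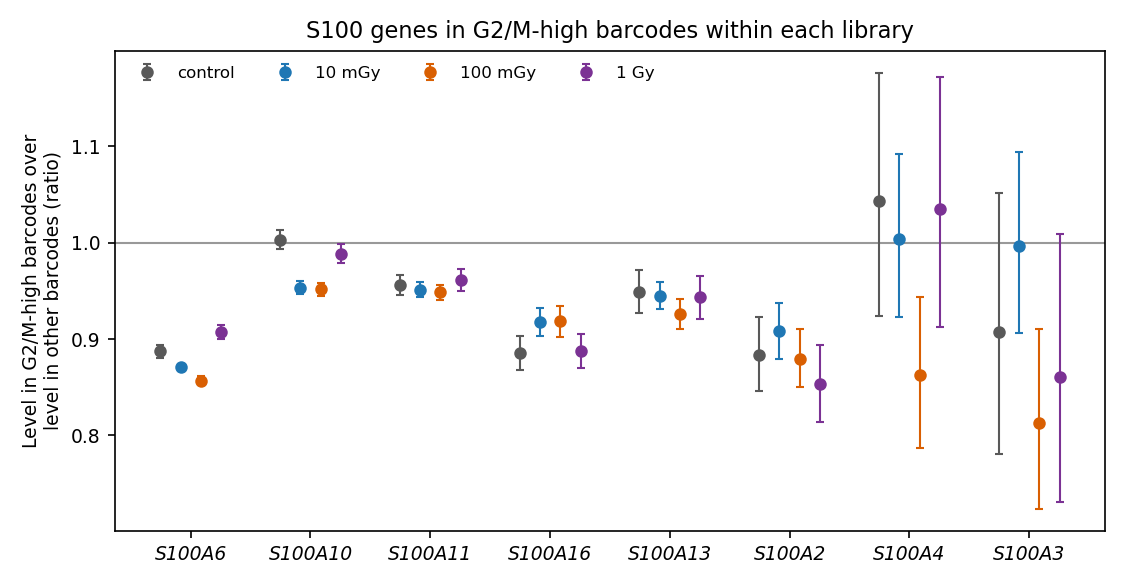
Level in G2/M-high barcodes over that in the other barcodes of the same library, with exact 95% counting intervals, for 8 S100 genes (S100A14 is left out for its few UMIs). The S100A6 ratios lie between 0.857 and 0.908, and the S100A4 interval holds 1 in 3 libraries and lies below 1 at 100 mGy.

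Barcodes were split in the same way by 16 S phase markers such as MCM2 and PCNA. This split was less sharp: 17.8% to 21.1% of barcodes lay within 10% of the cut, and in the control the markers summed to 2469 CPM in S-high barcodes against 1467 CPM in the others. S-high barcodes held fewer UMIs (a median of 20216.5 against 22506 in the control). S100A6 was 1.04-fold, 1.02-fold, 1.02-fold and 1.03-fold higher in S-high barcodes of the control, 10 mGy, 100 mGy and 1 Gy libraries. Of the 9 genes, 1 was lower in all 4 libraries, S100A13 (0.966, 0.975, 0.970 and 0.967), against 26.1% of all genes. S100A2, S100A4 and S100A6 were higher in all 4, against 38.5% of all genes, but the S100A4 interval held 1 in 3 libraries and the S100A2 interval in 2. In the 100 mGy library the log2 ratio of S100A6 (0.030) lay below the median of all genes (0.042). Thinned to 5000 UMIs, the 1 gene lower in all 4 was S100A11 instead of S100A13, and those higher in all 4 were S100A3 and S100A6. The shares of all genes were not taken for the thinned barcodes. With the upper 10% of barcodes S100A6 was at 0.998 in the 10 mGy library.

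S100A11 was higher in low-UMI barcodes than in the others of the same library. Its level there over that in the other barcodes was 1.33 (1.29 to 1.37), 1.49 (1.47 to 1.51), 1.48 (1.45 to 1.51) and 1.72 (1.68 to 1.76). The median ratio of all expressed genes lay between 0.940 and 0.988. S100A6 was also higher there in each library, by 1.1-fold to 1.40-fold, and S100A10 by 1.06-fold to 1.38-fold. S100A16 was lower in each, at 0.832-fold to 0.932-fold.

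Over single barcodes, S100A6 went together weakly with S100A10 and with S100A11. In barcodes thinned to 5000 UMIs (low-UMI barcodes and those of fewer than 5000 UMIs left out), the Spearman coefficient of S100A6 with S100A10 was 0.158, 0.164, 0.218 and 0.152. For S100A6 with S100A11 it was 0.126, 0.151, 0.168 and 0.108, and for S100A10 with S100A11 it was 0.088, 0.086, 0.122 and 0.069. The 33 pairs that hold a gene outside these 3 stayed between -0.015 and 0.093, a range that holds 3 of the 4 values of S100A10 with S100A11. These 3 are also the most abundant members, and the part of level in the coefficients was not tested. With the UMIs of ribosomal protein genes, S100A6 had coefficients from 0.110 to 0.140 and S100A10 from 0.088 to 0.140. Barcodes of a library share its preparation and depth, and these coefficients are descriptions in sparse counts.

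Proteins that S100 proteins bind were described from a list of 10 genes, of which 9 were expressed. None of the 9 stood over 1.2-fold above the control at 10 mGy (15.4% of all genes) and 4, or 44.4%, stood over 1.2-fold below it (53% of all genes). At 100 mGy, 2 were over 1.2-fold higher, or 22.2%, and 5 were lower, or 55.6%, where 14% and 58.9% of all genes were. These 9 genes had 4511 bases (CACYBP) to 19465 bases (AHNAK) of exon, more than any member. Of the expressed genes longer than any member, 10.5% were over 1.2-fold higher and 57.9% lower at 10 mGy. At 100 mGy 9.17% of them were higher and 64.3% lower. ANXA2, the partner of S100A10, had 2249 CPM in the control and ratios of 1.1, 1.2 and 1.08 by rising dose. ANXA1, the partner of S100A11, had ratios of 1.08, 1.23 and 0.843, and ANXA6 had 0.791, 0.678 and 0.988. ANXA11, which binds S100A6, had 0.836, 0.753 and 1.06. CACYBP, the calcyclin-binding protein, had 194 CPM in the control and ratios of 1.01, 1.1 and 0.885, and SUGT1, another S100A6 target, had 0.947, 1.04 and 0.977. The scaffold AHNAK, which S100A10 and annexin A2 bind, had ratios of 0.651, 0.700 and 1.01. MYH9, the myosin heavy chain that S100A4 binds, had 0.437, 0.416 and 1.01. The receptor gene TLR4 had 13.3 CPM in the control and ratios of 0.716, 0.708 and 0.877, and AGER, which codes for the other S100 receptor RAGE, stayed at or below 1.18 CPM.

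Other calcium-binding families were counted in the same way, against the same shares of all genes. The expressed annexin genes had 2862 bases (ANXA7) to 11048 bases (ANXA4) of exon, more than any member. The EF-hand genes had 1472 bases (CIB1) to 10626 bases (ACTN1), and the flanking genes below 1035 bases (RPS27) to 16711 bases (SNX27). The shares of all genes were not matched to these lengths, and the part of length in the counts was not tested. Of 8 expressed annexin genes, 2 were over 1.2-fold higher and 2 lower at 10 mGy (25% each), and 3 were higher and 3 lower at 100 mGy (37.5% each). Their highest at 10 mGy was ANXA3 at 1.36 and their lowest ANXA6 at 0.791. Of 23 expressed EF-hand genes outside the S100 family, 3 were higher and 10 lower at 10 mGy, and 3 were higher and 12 lower at 100 mGy. These are 13% and 43.5% at 10 mGy and 13% and 52.2% at 100 mGy, near the shares of all genes. The highest was CIB1 at 1.65, and the lowest was PPP3R1, the regulatory subunit of calcineurin, at 0.617. No expressed gene outside the family lay between the outermost members on chromosome 1. Among the 20 expressed genes flanking them, 10 on each side, 3 were higher (15%) and 8 lower (40%) at 10 mGy, from RPS27 at 1.54 to GATAD2B at 0.524. RPS27 codes for a ribosomal protein.

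The 5 genes whose ratios to control were most like those of S100A6, by Euclidean distance of the 3 log2 ratios among 1779 genes of at least 100 CPM, were MGST3, COX5A, EIF3K, SMIM26 and POLR2L. MGST3, a microsomal glutathione transferase, had a distance of 0.10 and ratios of 2.14, 1.97 and 0.959 by rising dose. COX5A, a subunit of cytochrome c oxidase, had ratios of 2.0, 2.05 and 0.922. Likeness here rests on 4 libraries that share 1 control.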

How the data were processed

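Single-cell libraries of BEAS-2B cells, 1 per group, were made with Chromium Single Cell 3' v3 kits. UMI counts of each gene in each barcode were deposited by the authors, unnormalized. The file headers name Cell Ranger 7.0.1, and the submitters' processing notes name Cell Ranger, STAR and GRCh37 without their roles. The sources used here do not give the annotation or the handling of intronic reads and strand, so reads of overlapping genes in the S100 cluster may not be told apart.

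Groups were taken from the treatment labels. The level of a gene was its UMIs over all UMIs of the library, scaled to 1000000 (CPM), with exact Poisson intervals, and ratios had exact conditional binomial intervals, both at 95%. All deposited barcodes were used and doublets were kept, with no doublet caller run. Genes with a mean of at least 10 CPM (8507) gave the background, and the threshold was 1.2-fold. The counting depth, 211752280 to 285806026 UMIs per library, makes intervals narrow, and the missing replicates limit precision. UMIs are molecules, but intervals and floors of 3 counts cover counting error only.

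The S100 genes, the partner, annexin, EF-hand and marker lists and the tests were chosen with earlier results of these data known. Named genes were all members, expressed family and partner genes, the 5 genes most like S100A6, and the highest and lowest of each list at 10 mGy. GENCODE 29 gave exonic lengths for 99.9% of the expressed genes, by identifier. RefSeq (GRCh38.p14) gave promoters and the gene order.

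Alternatives were the mean of UMIs scaled to 10000 per barcode, unscaled UMIs, median ratio scaling, totals without ribosomal protein and mitochondrially encoded genes, 4 selections of barcodes, thinning to 1500 or 5000 UMIs with barcodes of fewer left out, other floors (1 or 100 CPM) and a threshold of 1.5-fold. Leaving out each library in the cell cycle contrasts, and unscaled UMIs without low-UMI barcodes, were added after seeing the data. The ratio, excess dispersion and marker split were tested on simulated data. The scripts ran in Python 3.11.15 with scipy 1.17.1, numpy 2.4.6, matplotlib 3.10.9 and pandas 2.3.3.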

Additional observations from a re-analysis of the deposited data

Results flagged for a closer look

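S100A16 in S-high barcodes went different ways between libraries. Its level there over that in the other barcodes was 1.04, 1.03, 0.98 and 1.03 by rising dose, from the control to 1 Gy. The counting interval lay below 1 at 100 mGy and above 1 in the control, at 10 mGy and at 1 Gy. As the mean of UMIs scaled per barcode, the 100 mGy ratio was 1.01 and all 4 libraries lay above 1. The difference between the libraries was not tested, and each dose has 1 library.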

How the results depend on the processing

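Unscaled UMIs per barcode moved most of the counts of members past the threshold. The members over 1.2-fold above control became 3, 1 and 0 by rising dose, where 1.62%, 1.02% and 0% of all genes were, and those over 1.2-fold below became 2, 2 and 8, where 84.6%, 90.1% and 97.2% of all genes were. On that scale S100A2 turned to 0.957 at 10 mGy and 0.898 at 100 mGy, S100A3 to 0.998 at 100 mGy, and S100A14 to 0.937 at 1 Gy. Unscaled without low-UMI barcodes, a setting added after seeing the data, 7, 4 and 0 were above, against 10.5%, 2.37% and 0% of all genes. Those below were 0, 2 and 8, where 62.0%, 85.0% and 83.0% of all genes were. In that setting S100A2 was at 0.986 at 100 mGy and S100A14 at 0.996 at 1 Gy. S100A14 at 100 mGy turned to 1.99 when thinned to 1500 UMIs and to 1.03 at 5000 UMIs. The count below control at 100 mGy was 0 under median ratio scaling, both thinnings and the 1.5-fold threshold, and that at 1 Gy was 1 under both thinnings. The count above control at 1 Gy was 0 at 1.5-fold, and the count higher at 100 mGy than at 10 mGy was 1 under median ratio scaling. Members with lower dispersion at 100 mGy numbered 6 with unscaled UMIs (43.9% of all genes), 0 without low-UMI barcodes (0.329%), 8 with at least 700 genes (99.7%), 3 thinned to 1500 UMIs (39.2%), 2 thinned to 5000 UMIs (31.1%) and 3 as excess dispersion (51.1%). With totals that left out ribosomal protein and mitochondrially encoded genes, 3 members were lower in S-high barcodes. The share of all genes was not taken for that setting and was 26.1% in the main one. The cause of these moves was not tested.

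Of the ratios of single members under the alternatives, 159 stayed within the counting interval, 130 left it in the same direction or without a call, and 8 past 1.2-fold reversed as given above. Under 1.2-fold, 7 more turned to the other side of 1, of which 3 had intervals that excluded 1, all S100A16 with unscaled UMIs: 0.814 at 10 mGy, 0.675 at 100 mGy, and 0.746 at 100 mGy without low-UMI barcodes. Other than with unscaled UMIs, the S100A6 ratio ran from 2.11 to 2.67 at 10 mGy and from 1.84 to 2.46 at 100 mGy, the highest under median ratio scaling. At 1 Gy it ran from 0.894 to 0.975, the highest as the mean of UMIs scaled per barcode. The number of members lower in G2/M-high barcodes ran from 6 to 8. For the alternatives of scale, depth and barcodes the share of all genes was not taken, and in the main setting it was 29.9%. Leaving out 1 of the 4 libraries, an alternative chosen after seeing the data, gave 7 to 8 members lower in G2/M-high barcodes. Of all genes, 31.0% to 33.6% were lower there. In S-high barcodes 1 to 2 members were lower, against 28.2% to 31.3% of all genes. The 2 were found without the 10 mGy library. Each dose had 1 library, so none could be left out of the ratios between doses, and S100A14 rests on at most 54 UMIs in a library. No paired analysis was possible because each group has 1 sample, as far as doses are compared, and the cell cycle contrasts were paired within libraries.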
